A study of Mus musculus with 121 samples.

Results

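The genes described here are 37 lysosomal and autophagy genes, taken from a list of the TFE transcription factors, lysosomal membrane proteins, hydrolases, proton pump subunits and autophagy components. A gene had to reach 1 CPM (read counts scaled to a common library total) in at least 3 libraries. All 37 did, out of 31053 genes listed and 13292 genes past that filter. RNA came from an immortalised ear fibroblast line of mice that carry the Per2::Luc knock-in reporter (genotype PER2::LUC sv, passage P25), so all libraries share that line and that reporter allele. The cells went through 3 daily cycles in which the medium was changed every 12 h. In HL, 12 h of medium rich in glucose and insulin were followed by 12 h of medium low in glucose and without insulin; in LH the order was the opposite; in HH the rich medium was renewed each time. After 12 h without a further change, RNA was collected 6 times at 4 h intervals and sequenced from the 3′ end, which asks how cycles of nutrients set the transcriptome over a day. There were 21 HL, 22 LH and 19 HH libraries, 2 to 4 for each treatment and collection. Nothing in the labels says that these came from separate donors, so the tests measure the spread between samples of 1 line, which may in part be technical.

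Lysosomes are acidic organelles that break down material delivered by endocytosis and autophagy. Cathepsins and glycosidases do the digestion inside them, a V-type ATPase pumps in protons, and LAMP proteins line the membrane. In autophagy the ULK1 kinase and the Beclin 1 complex start a membrane that proteins of the ATG8 family (LC3 and GABARAP) coat and that then fuses with the lysosome. TFEB and TFE3 are kept in the cytoplasm when nutrients and insulin signalling keep mTORC1 active, and in starved cells they enter the nucleus and bind E-box elements in the promoters of many of these genes.

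Promoters of 5 of the genes are shown first, chosen among those that hold the motif described here, because TFE factors and the clock factors CLOCK and BMAL1 both recognise the hexamer CACGTG. Windows of 300 bases, 250 before and 50 after the annotated start, were taken from RefSeq (GRCm38.p6) and matched 29 of the 37 genes. CACGTG stood in 11 of the 29 (37.9%), beside 14 of the 84 other genes of these pathways with a window (16.7%) and 8.09% of all 27025 genes with one. The longer palindrome TCACGTGA, which contains CACGTG, stood in 7 of the 29 (24.1%), beside 4 of those 84 (4.76%) and 1.13% of all genes. Both motifs read the same on either strand. Capitals mark CACGTG, or the whole of TCACGTGA where the longer motif is present. Atp6v0d1 (chr8:105566015-105566314, minus strand), which encodes the d1 subunit of the membrane sector of the proton pump and was the only gene of the 37 called over collections, carried 1 TCACGTGA, in which the CACGTG began at base -3 from the start. Ctsa (chr2:164833523-164833822, plus strand) and Ctsd (chr7:142387778-142388077, minus strand), 2 of the proteases whose HH values are given below, carried 2 matches each. Lamp1 (chr8:13158911-13159210, plus strand) had the most, with 4, and is shown for that number, not for a call. Atg5 (chr10:44268089-44268388, plus strand), one of the 2 genes called between HH and HL once 5 libraries were left out, had 1.
Atp6v0d1: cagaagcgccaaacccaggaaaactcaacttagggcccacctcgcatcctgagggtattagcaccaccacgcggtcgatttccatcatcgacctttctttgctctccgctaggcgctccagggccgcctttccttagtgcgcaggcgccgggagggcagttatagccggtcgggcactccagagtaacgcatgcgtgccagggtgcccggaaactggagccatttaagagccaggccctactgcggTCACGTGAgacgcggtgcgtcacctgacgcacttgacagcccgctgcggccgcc
Ctsa: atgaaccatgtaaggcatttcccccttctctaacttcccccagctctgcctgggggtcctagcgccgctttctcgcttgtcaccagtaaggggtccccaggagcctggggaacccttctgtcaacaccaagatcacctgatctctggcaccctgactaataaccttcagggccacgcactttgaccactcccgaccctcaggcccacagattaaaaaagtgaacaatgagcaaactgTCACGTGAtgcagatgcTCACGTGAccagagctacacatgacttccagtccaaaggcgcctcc
Ctsd: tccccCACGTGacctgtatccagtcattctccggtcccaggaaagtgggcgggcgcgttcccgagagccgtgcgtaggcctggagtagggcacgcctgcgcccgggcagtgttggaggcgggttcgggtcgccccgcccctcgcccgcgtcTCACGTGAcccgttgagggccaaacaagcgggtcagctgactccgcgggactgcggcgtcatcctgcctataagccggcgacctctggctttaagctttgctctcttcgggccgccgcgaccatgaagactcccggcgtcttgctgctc
Lamp1: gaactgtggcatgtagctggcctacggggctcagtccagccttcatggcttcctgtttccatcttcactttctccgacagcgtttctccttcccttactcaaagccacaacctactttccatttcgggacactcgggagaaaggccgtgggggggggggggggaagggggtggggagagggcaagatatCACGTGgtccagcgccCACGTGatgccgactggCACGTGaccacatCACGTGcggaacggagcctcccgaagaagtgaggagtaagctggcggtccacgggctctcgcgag
Atg5: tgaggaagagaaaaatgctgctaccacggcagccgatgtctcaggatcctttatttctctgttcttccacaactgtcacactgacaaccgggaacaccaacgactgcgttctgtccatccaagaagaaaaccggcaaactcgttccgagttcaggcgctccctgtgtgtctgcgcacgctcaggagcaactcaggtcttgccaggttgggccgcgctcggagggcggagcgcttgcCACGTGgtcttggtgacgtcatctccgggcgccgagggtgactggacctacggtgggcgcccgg

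The other promoters with CACGTG were those of Mcoln1, Gla, Ctsl, Atp6v0e, Atp6v1a and Atg7. No window of Tfeb, Tfe3, Gabarap or Gusb held it, and Map1lc3a and Ctsb, whose values are given below, were among the 8 genes not matched. These matches are descriptions of the letters in the windows and say nothing of binding.

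Before the values, some libraries have to be named. Median depth was 5548099 counts in HL, 5795906 in LH and 6042936 in HH. One library, LH at 4 h replicate 2, held 104912 counts, and the next lowest held 2136819. Across 5926 genes above 20 CPM the median correlation of a library with the median profile was 0.984. It was under 0.9 in 5 libraries, namely LH at 4 h replicates 1 and 2, HL at 4 h replicate 3, HL at 16 h replicate 2 and HH at 20 h replicate 3. The remaining LH library at 4 h had the lowest value of the other 57 (0.922), so all 3 LH libraries at 4 h were among the 6 lowest. The read summary of the study gives 35 of the 62 libraries another name than their title and does not list 5. The titles set the groups here, and results by library number are given for the main counts and for some of the genes named. Summed fibroblast markers (Col1a1, Col1a2 and 6 others) lay between 9017 and 36330 CPM in every library above 1000000 counts. Of the markers of other skin cells, 6 macrophage genes summed there to at most 43.5 CPM and 4 keratinocyte genes to at most 4.57 CPM, and Krt5, Tyr and Tyrp1 were at 0 in every library. All 4 melanocyte markers averaged under 1 CPM, as did the endothelial markers Pecam1 and Cdh5. Kdr, the third endothelial marker, averaged 172 CPM, and the sum of the 3 ran from 35.6 to 231.1 CPM in HL, from 22.9 to 247.3 CPM in LH and from 145 to 269.7 CPM in HH. Its part in the results was not tested.

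Together the 37 genes made up 1.25% of all counts. The medians, ranges and collection means of levels below leave out the LH library of 104912 counts, so that they rest on 61 libraries (21 HL, 21 LH and 19 HH), unless a value from it is named; the tests include it. Their summed level had a median of 12900 CPM in HL, 12630 CPM in LH and 12330 CPM in HH, and the ranges of the treatments overlapped. With a 3′ protocol a count is not divided by transcript length, so each gene is compared below only with itself across libraries. Averages over the 62 libraries ran from 5.02 CPM for Galns, a sulfatase of keratan sulfate breakdown, to 4439 CPM for Cd63, a tetraspanin of late endosomes that held 35.4% of the summed counts. Of the 37 genes, 20 averaged over 100 CPM, 14 between 20 and 100 CPM and 3 (Tfeb, Gla and Galns) under 20 CPM. The median gene of the 37 had 121.9 CPM and the median of all genes past the filter 15.45 CPM. Within treatment and collection, the SD of the log2 CPM had a median of 0.23 over the 34 genes above 20 CPM, and 0.29 over all genes above 20 CPM. Among the 34 it was lowest for Sqstm1 (0.13), the receptor p62 that carries ubiquitinated cargo to autophagosomes. The SD among them was highest for Psap (0.49), the precursor of the saposins, which ranged from 62.5 CPM in HL at 20 h replicate 4 to 800.4 CPM in HH at 4 h replicate 4.

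**Figure D1:**
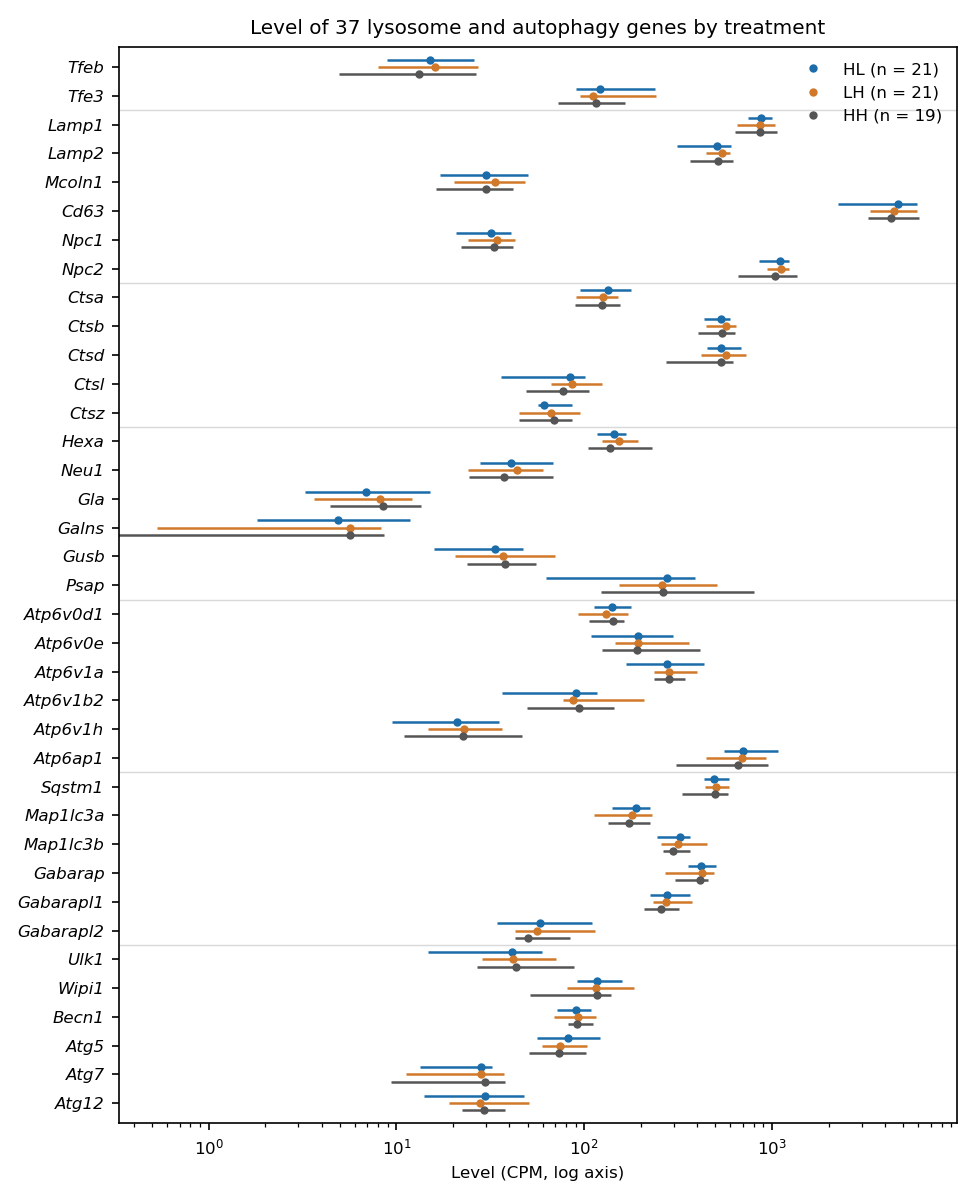
Level of each of the 37 genes in CPM on a log axis, grouped by role, with the median (point) and the lowest to highest library (bar) of HL, LH and HH over the 61 libraries above 1000000 counts (21, 21 and 19). The 3 bars of each gene overlap, and the HH bar of Galns runs past the left edge to a library at 0.

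The proton pump acidifies the lysosome and was represented by 6 genes. Atp6v1a, the catalytic subunit, had medians of 276.4 CPM in HL, 281.2 CPM in LH and 281.3 CPM in HH. Atp6ap1, an accessory protein of the membrane sector, had medians of 697.2, 691.9 and 655.0 CPM in the same order, lowest in HH. Summed over the 6 pump genes, the treatments overlapped, with medians of 1483, 1489 and 1435 CPM. Atp6v0e ranged widely in every treatment, from 109.1 to 296.3 CPM in HL, from 146.1 to 360.8 CPM in LH and from 123.7 to 412.6 CPM in HH. The membrane genes summed to medians of 7153 CPM in HL, 6988 CPM in LH and 6845 CPM in HH, most of it Cd63. Lamp1, the main glycoprotein of the lysosomal membrane, had medians of 871.5, 858.4 and 859.2 CPM, and Lamp2, its partner that also serves chaperone-mediated autophagy, 509.2, 543.4 and 517.6 CPM. For Npc2, which hands cholesterol to NPC1, the medians were 1104, 1115 and 1041 CPM. The 3 ranges of each of these genes overlapped.

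The 5 proteases summed to medians of 1345 CPM in HL, 1408 CPM in LH and 1324 CPM in HH. The glycosidase, sulfatase and saposin genes summed to 507.9, 507.3 and 516.1 CPM, and Hexa, the alpha chain of β-hexosaminidase, had medians of 143.9, 153.4 and 137.7 CPM. Among the autophagy genes, p62 and the 5 ATG8 genes summed to medians of 1769 CPM in HL, 1746 CPM in LH and 1704 CPM in HH. Gabarapl2, the GATE-16 gene of that family, had medians of 58.07, 56.08 and 50.14 CPM. The 6 initiation and conjugation genes summed to 395.5, 386.5 and 376.8 CPM, and Becn1, the Beclin 1 gene, had medians of 90.41, 92.61 and 91.61 CPM. In each of these sums the ranges of HL, LH and HH overlapped. The annotation places 9 of the 37 (Lamp1, Npc1, Ctsa, Ctsb, Ctsz, Hexa, Atp6v1h, Sqstm1 and Map1lc3b) over a gene past the filter on the opposite strand. The strand setting of the counting is not known here, so reads from the stretch that such a pair shares may not be told apart. Reads set aside as ambiguous came to 0.288 to 0.459% per run.

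The first comparison asks whether the order or the constancy of the media set a different average level over the day. By the 2 thresholds of the study's methods (p under 0.01 over the treatments, then p under 0.05 for the pair), none of the 37 genes was called in any pair with edgeR. LH differed from HL in 154 of all 13292 genes (1.16%), HH from HL in 160 (1.2%) and LH from HH in 121 (0.91%). After Benjamini-Hochberg adjustment no gene of the whole table passed in any pair. In bulk RNA fewer cells of a type and less RNA per cell cannot be told apart. The 95% interval of the log2 difference lay within 0.5 on either side of 0 for 36 of the 37 genes between LH and HL, for 35 between HH and HL and for 36 between LH and HH. Galns, the lowest of the 37, was the exception each time, and Tfe3 was the other one between HH and HL. These counts hold by title only. By library number the interval of Tfe3 ran from 0.110 to 0.571 in LH minus HL and from 0.085 to 0.549 in LH minus HH.

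**Figure D2:**
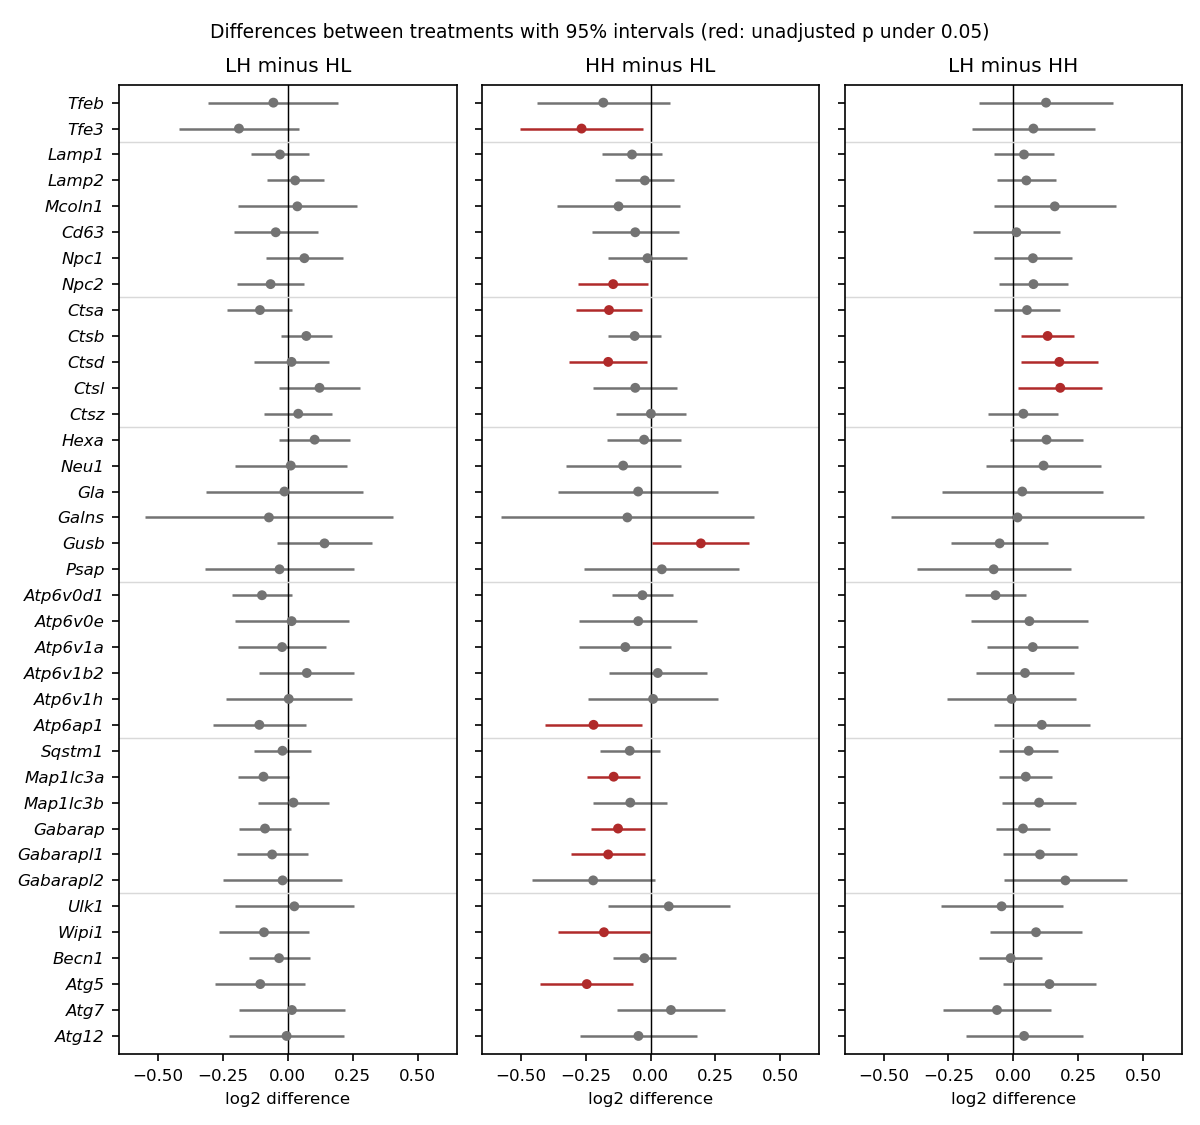
Log2 difference in average level for each of the 37 genes in the 3 pairs of treatments, with 95% intervals from the edgeR fit; red marks an unadjusted p under 0.05. Most points lie below 0 in HH minus HL and above 0 in LH minus HH, and no point passed the adjusted test.

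Between HH and HL the 37 genes sat on one side more often than not. Of their log2 differences, 30 were below 0 and 7 above, with a median of -0.07, whereas 49.5% of all genes were below 0 and their median was 0.00. By role, all 6 of the receptor and ATG8 genes (median -0.13), all 6 membrane genes (median -0.07) and both TFE factors were below 0. So were 4 of the 5 proteases, 4 of the 6 glycosidase and saposin genes, 4 of the 6 pump genes and 4 of the 6 initiation and conjugation genes. At an unadjusted p under 0.05, 10 of the 37 were lower in HH than in HL, against 562 of all genes (4.23%). One, Gusb, was higher, against 423 of all genes (3.18%). Among genes above 20 CPM the share lower in HH was 5.79%. The 10 genes were Tfe3, Npc2, Ctsa, Ctsd, Atp6ap1, Map1lc3a, Gabarap, Gabarapl1, Wipi1 and Atg5. With library totals in place of TMM factors both medians moved up, that of all genes to 0.05 and that of the 37 to -0.01. Then 23 of the 37 and 36.2% of all genes were below 0, and 1 of the 37 was lower at an unadjusted p under 0.05, beside 1.76% of all genes. Without the 5 libraries that stood apart 27 were below 0 (50.9% of all genes), with a median of -0.05, and 4 were lower at that p, beside 526 of 13157 genes (4.0%). By library number 24 were below 0 (49.8% of all genes), with a median of -0.04, and 1 (Map1lc3a) was lower at that p, beside 222 of 13198 genes (1.68%). By number 15 of the HL libraries become LH, and the genes lower in HH than in LH under that naming are listed below. By title, the count lower in HH than in HL at that p was 6 with the first sequencing run only, beside 4.38% of all genes, and 2 with the second, beside 2.91%. When HL or HH libraries of 1 replicate number were left out, it lay between 3 without HH replicate 1, beside 2.72% of all genes, and 13 without HH replicate 4, beside 7.25%. Leaving out the HH libraries numbered 4 put 4 genes (Npc2, Ctsd, Hexa and Atp6ap1) past both thresholds, beside 322 of 13232 genes (2.43%). The same 4 then passed between LH and HH, beside 2.06% of all genes. Leaving out the HL libraries numbered 1 put 1 (Atg5) past both thresholds between HH and HL, beside 198 of 13222 genes (1.5%).

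Map1lc3a, which encodes the ATG8 protein LC3A, had the smallest p between HH and HL. Its lowest, median and highest library were 141.1, 188.8 and 223.8 CPM in HL and 134.6, 173.9 and 223.1 CPM in HH. The ranges overlapped almost in full. The log2 difference was -0.14 (SE 0.05), with an unadjusted p of 0.00772 and an adjusted p of 0.517. Atg5, part of the enzyme that links ATG8 proteins to lipid, ran from 56.23 through 82.09 to 121.2 CPM in HL and from 51.01 through 73.4 to 101.7 CPM in HH. Its ranges overlapped too, with the highest library (HL at 4 h replicate 3) among the 5 that stood apart. The log2 difference was -0.25 (SE 0.09, unadjusted p 0.00794, adjusted p 0.520). Ctsa, the carboxypeptidase that protects sialidase and galactosidase in the lysosome, ran from 95.27 through 133.1 to 176.5 CPM in HL and from 89.1 through 124.2 to 154.7 CPM in HH. It differed by -0.16 (SE 0.06, unadjusted p 0.0156, adjusted p 0.602), and the ranges overlapped. Without the 5 libraries Map1lc3a (-0.16) and Atg5 (-0.22) passed both thresholds, 2 of the 37 beside 186 of 13157 genes (1.41%), and neither passed the adjusted test. Gusb, the lysosomal β-glucuronidase, ran from 15.85 through 33.54 to 47.04 CPM in HL and from 23.85 through 37.72 to 55.39 CPM in HH, a log2 difference of 0.19 (SE 0.09, unadjusted p 0.0427, adjusted p 0.660).

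Between LH and HH, 30 of the 37 log2 differences were above 0 (median 0.06, and -0.00 over all genes). This comparison shares the HH libraries with the one above and is not a separate observation of the HH side. At an unadjusted p under 0.05, 3 of the 37 were higher in LH, beside 332 of all genes (2.5%), and 0 were lower, beside 363 (2.73%). The 3 were the proteases Ctsb, Ctsd and Ctsl, and all 5 proteases lay above 0 with a median of 0.13. By library number 28 of the 37 were above 0 (median 0.07). Higher in LH at that p were then Tfe3, Npc2, Ctsa, Ctsb, Ctsd, Atp6ap1, Map1lc3a, Gabarapl1, Wipi1 and Atg5, and Gusb was lower. The share of all genes at that p by number is not given here, so the list has no background beside it. Ctsb, a cysteine cathepsin, ran from 443.5 through 571.8 to 639.1 CPM in LH and from 401.5 through 543.5 to 632.9 CPM in HH. Its ranges overlapped, and the log2 difference was 0.13 (SE 0.05, unadjusted p 0.0111, adjusted p 0.883). Ctsd, the main aspartic protease, ran from 417.4 through 569.9 to 724.0 CPM in LH and from 271.6 through 536.4 to 620.8 CPM in HH, a log2 difference of 0.18 (SE 0.07, unadjusted p 0.0197). Both ends of that comparison, the 724.0 CPM of LH at 4 h replicate 1 and the 271.6 CPM of HH at 20 h replicate 3, came from libraries that stood apart, and without the 5 the difference was 0.09 (unadjusted p 0.145). Ctsl, another cysteine cathepsin, ran from 66.31 through 85.96 to 125.0 CPM in LH and from 49.17 through 77.48 to 106.3 CPM in HH, again overlapping, with a log2 difference of 0.18 (SE 0.08, unadjusted p 0.0288).

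Between LH and HL the genes were split, with 21 log2 differences below 0 and 16 above (median -0.02, and 0.00 over all genes). None of the 37 reached an unadjusted p under 0.05, beside 2.47% of all genes higher and 3.22% lower in LH. The smallest p values belonged to Map1lc3a (-0.09, p 0.0646), Gabarap (-0.09, p 0.0876) and Atp6v0d1 (-0.10, p 0.0897). For Gabarap, an ATG8 protein of late autophagosomes, the libraries ran from 359.1 through 419.7 to 502.1 CPM in HL and from 269.8 through 422.3 to 489.4 CPM in the 21 deeper LH libraries. The shallow LH library held 552.8 CPM, from 58 counts. The 2 medians were thus nearly equal and the ranges overlapped.

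TFEB and TFE3, the factors that drive many of these genes in starved cells, were measured here only as transcripts. Tfeb was low, with medians of 15.03 CPM in HL, 16.09 CPM in LH and 13.25 CPM in HH. Tfe3 ran from 90.15 through 121.9 to 239.2 CPM in HL, from 95.17 through 112.0 to 242.1 CPM in LH and from 72.26 through 115.8 to 164.2 CPM in HH. The treatments overlapped apart from 4 high libraries, which were LH at 4 h replicate 1 (242.1 CPM), HL at 16 h replicate 2 (239.2 CPM), HL at 20 h replicate 3 (196.6 CPM) and HL at 4 h replicate 3 (191.5 CPM). All but the third of these are among the 5 that stood apart. With all libraries Tfe3 was -0.27 (SE 0.12) in HH relative to HL, at an unadjusted p of 0.0297, and without the 5 it was -0.12, at an unadjusted p of 0.166.

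The level of Tfe3 also turned on the naming of the libraries. By library number 3 of those 4 high libraries belong to LH and the fourth is not listed. LH then exceeded HL in Tfe3 by 0.34 (unadjusted p 0.00473, adjusted p 0.553), where by title it was lower by 0.19 on the log2 scale, and it was the only one of the 37 past both thresholds, beside 177 of 13198 genes (1.34%). LH exceeded HH by number in Tfe3 (0.32, unadjusted p 0.00836) and in Ctsd (0.24, unadjusted p 0.00250), 2 of the 37 beside 215 genes (1.63%). Between LH and HL the log2 difference had the other sign by number in 26 of the 37 genes, between HH and HL in 8 and between LH and HH in 4. Among the genes described above, HH minus HL by number was -0.11 for Atg5 (unadjusted p 0.158), -0.06 for Ctsa (unadjusted p 0.359) and 0.07 for Gusb (unadjusted p 0.388), and LH minus HH was 0.08 for Ctsl (unadjusted p 0.333). HH keeps its 19 libraries in both namings, while 15 of the HL libraries become LH by number and 16 of the LH libraries become HL.

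**Figure D3:**
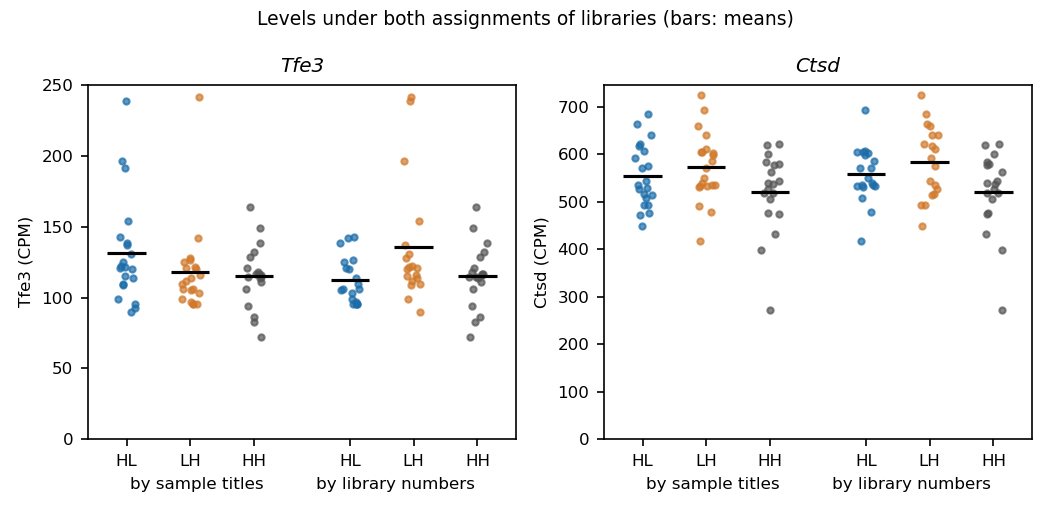
Tfe3 and Ctsd in CPM, 1 point per library and a bar at each mean, with libraries placed by sample title and by library number. Of the 4 highest Tfe3 libraries, those at 239.2 and 196.6 CPM move from HL to LH between the namings, the one at 242.1 CPM is LH in both and the one at 191.5 CPM is not listed by number; the HH libraries stay.

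The second question is whether the genes changed over the day within a treatment. After adjustment, 0 of the 37 changed over the 6 collections in HL, beside 40 of all genes (0.301%), and 0 in HH, beside 39 (0.293%). In LH 1 changed, Atp6v0d1, beside 390 (2.93%). At an unadjusted p under 0.05 edgeR counted 2 of 37 for HL (8.98% of all genes), 9 for LH (16.9%) and 3 for HH (8.61%). The ratio of the highest to the lowest collection mean had a median over the 37 genes of 1.29 for HL, 1.38 for LH and 1.25 for HH. Over the 34 above 20 CPM it was 1.27, 1.35 and 1.24, and over all genes above 20 CPM it was 1.33, 1.43 and 1.34. The LH mean at 4 h rests there on 2 libraries, both among the 6 with the lowest correlation to the median profile. Without LH at 4 h, 3 of 13207 genes (0.0227%) were called over the collections in LH. The ratio was smallest for Gabarap in HL (1.09), Sqstm1 in LH (1.09) and Lamp1 in HH (1.14), and largest for Galns in HL (2.10) and HH (2.24) and for Atg7 in LH (2.81).

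**Figure D4:**
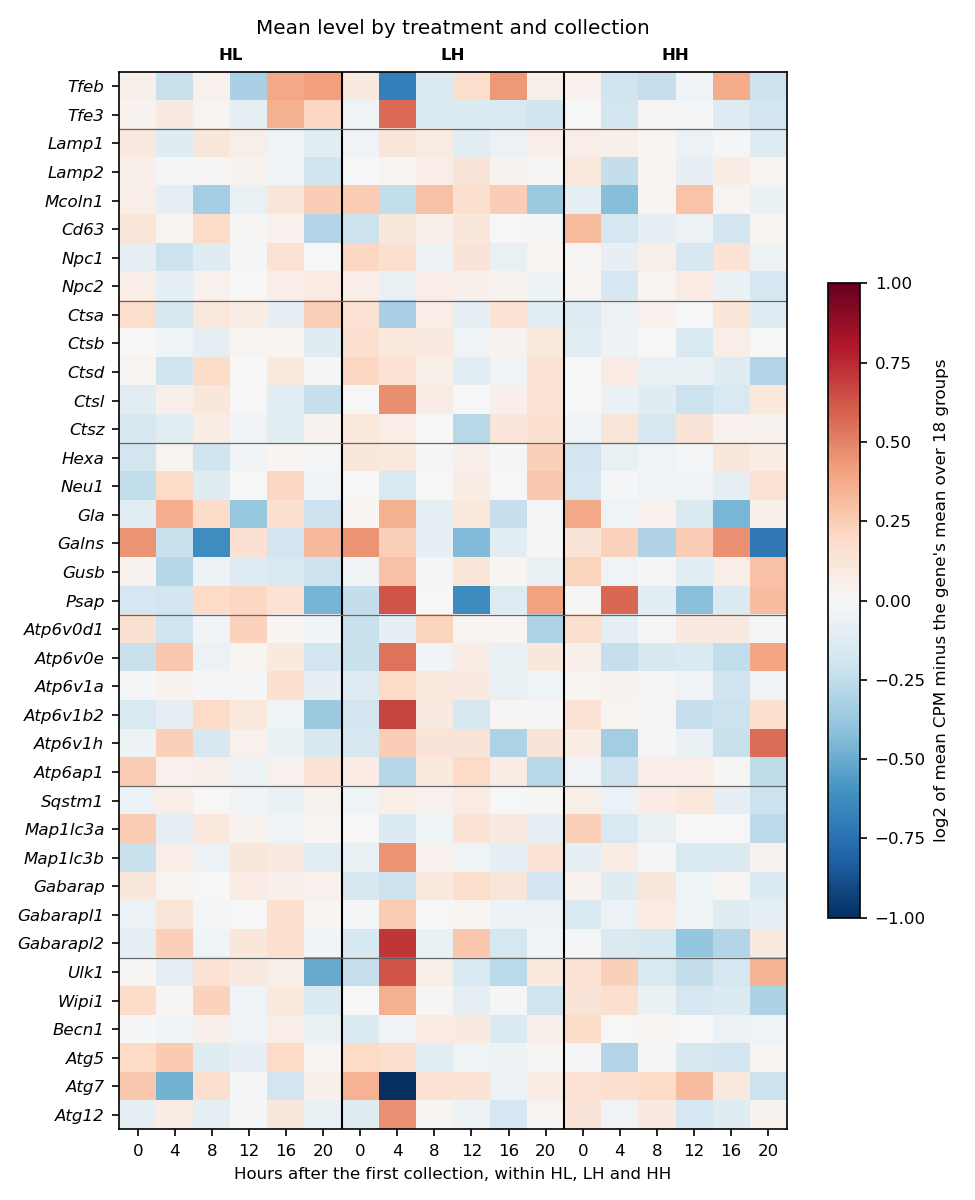
Heat map of the log2 mean CPM of each gene at each collection (0 to 20 h) within HL, LH and HH, over libraries above 1000000 counts, minus the mean of that gene over the 18 groups. Many of the strongest colours lie in LH at 4 h, among them Atg7 (low) and Gabarapl2 and Atp6v1b2 (high), and Galns and Psap vary in several groups.

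Atp6v0d1 (ENSMUSG00000013160, annotated at chr8:105524465-105566047 on the minus strand of GRCm38) changed over the collections in LH, where it was highest at 8 h and lowest at 20 h. These hours follow the order of the collections. The LH titles give both of these collections the same clock hour, so their place in the day is not settled. The LH libraries held 97.76, 124.6 and 127.0 CPM at 0 h, and 159.7, 171.8, 147.8 and 154.6 CPM at 8 h. At 12 h they held 131.2, 144.6, 119.9 and 157.8 CPM, at 16 h 134.6, 124.6, 150.8 and 141.4 CPM, and at 20 h 119.1, 98.91, 96.75 and 124.2 CPM. All 4 libraries at 8 h were thus above all 7 at 0 and 20 h. At 4 h the 3 libraries were far apart, at 92.77 CPM, 164.7 CPM and, in the library of 104912 counts, 209.7 CPM from 22 counts. The adjusted p over the collections was 0.0317 in LH, 0.655 in HL and 0.896 in HH. In HL the highest collection was 12 h, with 178.4, 159.2, 140.1 and 160.7 CPM, and the lowest was 4 h, at 113.2 to 132.9 CPM, while HH libraries stayed between 105.9 and 163.4 CPM over the day. The difference in course between treatments had an unadjusted p of 0.00285 and an adjusted p of 0.216. The call in LH was lost without the LH libraries numbered 1 (adjusted p 0.0656), 2 (0.293) or 3 (0.123), and kept without those numbered 4 (0.0440). It was also lost without the HL libraries numbered 1 (0.0543) and the HH libraries numbered 1 (0.0515) or 4 (0.0561), with the first sequencing run only (0.0670), with the second only (0.185) and with no filter (0.426). The adjusted p was 0.0174 without the 5 libraries that stood apart, 0.133 without the 3 libraries at 4 h, where 3 genes of the whole table were called, 0.120 with library totals and 0.254 by library number.

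**Figure D5:**
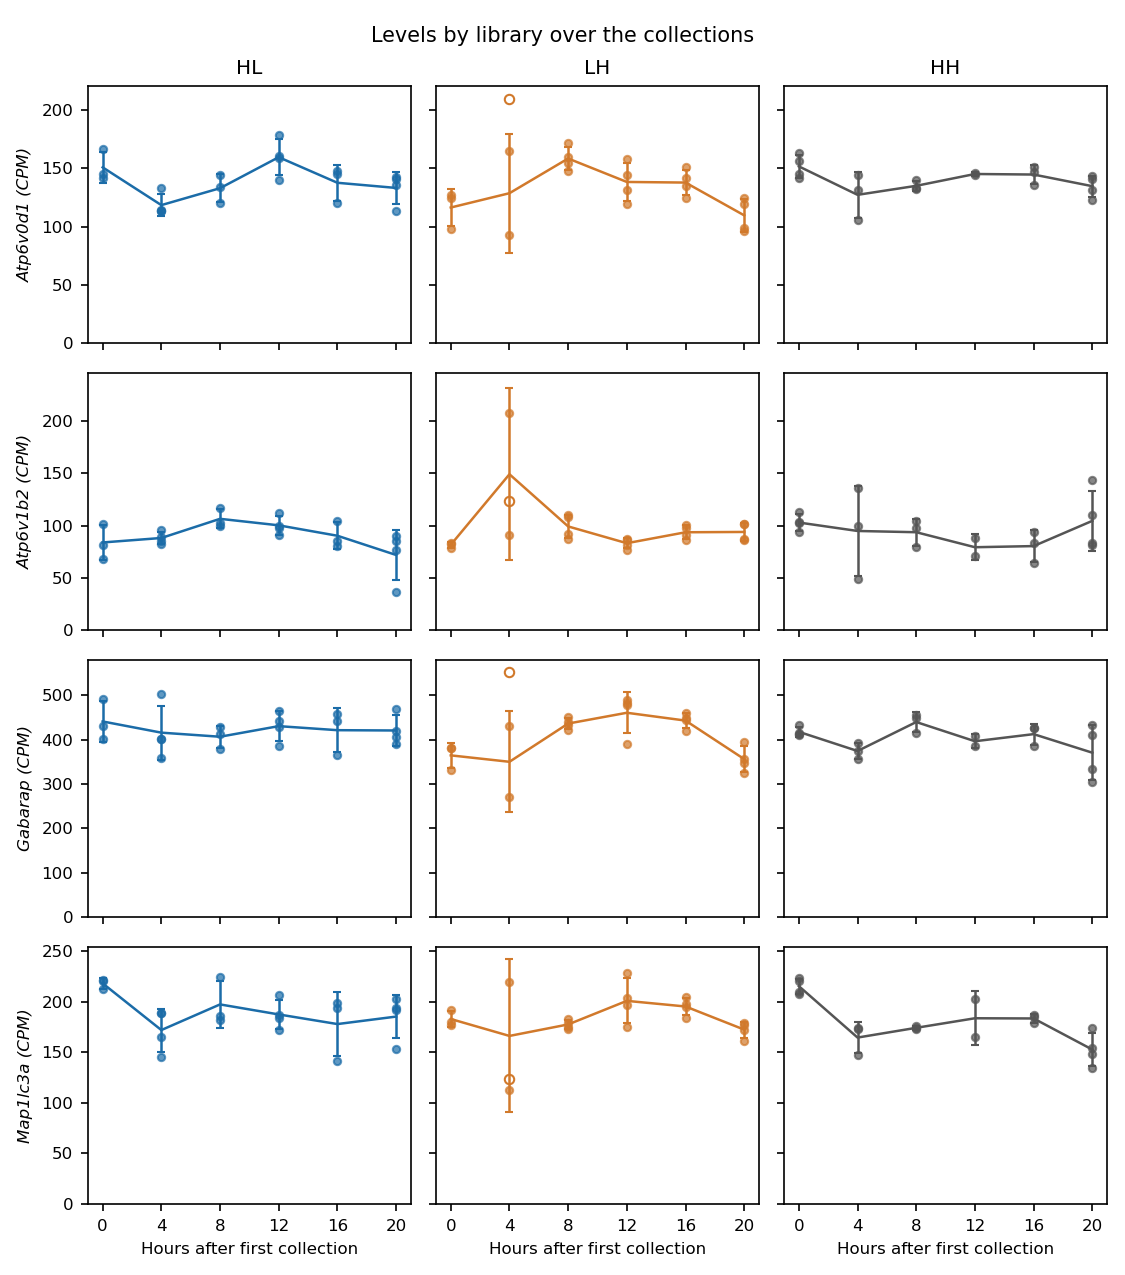
Atp6v0d1, Atp6v1b2, Gabarap and Map1lc3a in CPM by library and collection in HL, LH and HH; lines and bars give the mean and SD over libraries above 1000000 counts, and the open circle is the library of 104912 counts. In LH, Atp6v0d1 is highest at 8 h and Gabarap at 12 h, and Map1lc3a in HH is highest at 0 h.

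A test against a 24 h reference curve, JTK_CYCLE at p under 0.01, called 0 of the 37 in any treatment. Over all genes it called 62 for HL (0.466%), 115 for LH (0.865%) and 162 for HH (1.22%). At p under 0.05 it gave 1 of the 37 for HL (2.37% of all genes), 3 for LH (3.73%) and 0 for HH (4.15%). Atp6v0d1 in LH missed the threshold at p = 0.0102 with a peak at 8 h, and Gabarap in LH missed it at p = 0.0127 with a peak at 12 h. Both peaks rest on the order of the collections. In the LH titles the collections at 0 h and 12 h share a clock hour, as do those at 8 h and 20 h. Gabarap held 331.7, 380.5 and 381.7 CPM at 0 h and 483.2, 478.5, 391.3 and 489.4 CPM at 12 h in LH, and lay between 325.8 and 395.6 CPM at 20 h. At 4 h the LH libraries held 269.8 CPM, 430.5 CPM and, in the shallow one, 552.8 CPM, and so spanned the lowest and the highest LH value of the gene. The lowest library at 12 h fell among those at 20 h, and the other 3 were higher than all of them. Without the 5 libraries that stood apart, Atp6v0d1 (p = 0.00122) and Gabarap (p = 0.00168) both passed, 2 of the 37 beside 178 of 13157 genes (1.35%). By library number Gabarap in LH had p = 0.519 and Atp6v0d1 p = 0.0320. Ctsd in LH had p = 0.0354. Atp6v1b2, a subunit of the catalytic head of the pump, had p = 0.0112 in HL with a peak at 10 h, and ran there from a mean of 71.97 CPM at 20 h to 106.5 CPM at 8 h. In HH the smallest p was that of Wipi1, one of the initiation and conjugation genes (p = 0.0528), followed by Gabarapl2 (p = 0.126) and Ctsl (p = 0.186). In HL, Atp6v1b2 was followed by Psap (p = 0.129) and Tfeb (p = 0.290).

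Of the other genes nearest the threshold over collections, Atp6v1b2 and Atg7 in LH leaned on few libraries. Atp6v1b2 in LH had an adjusted p of 0.0852, and its 4 h libraries held 90.93, 123.9 and 207.3 CPM, while all other LH libraries lay between 77.03 and 110.0 CPM. The value of 207.3 CPM came from LH at 4 h replicate 4. Without the 5 libraries that stood apart, which leaves that library alone at 4 h, Atp6v1b2 (adjusted p 0.0306) joined Atp6v0d1 as 2 of the 37 called, beside 358 of 13157 genes (2.72%), and without LH at 4 h its adjusted p was 1. Atg7, the E1-like enzyme of ATG8 conjugation, held 11.31 and 12.64 CPM in the 2 deeper LH libraries at 4 h and 28.6 CPM in the shallow one, and between 18.13 and 37.38 CPM in the rest of LH (adjusted p 0.104). Its lowest libraries in the other treatments were also among the 5, with 9.402 CPM in HH at 20 h replicate 3 and 13.34 CPM in HL at 4 h replicate 3. In HH, Map1lc3a had the smallest adjusted p (0.273). It held 223.1, 209.8, 207.9 and 220.1 CPM at 0 h, and 173.8, 134.6, 154.1 and 147.8 CPM at 20 h, so that these 2 collections did not overlap. The same gene was at 220.2, 212.1 and 221.6 CPM at 0 h in HL, where 20 h held 153.6 to 202.1 CPM (adjusted p 0.814). The next in HH were Atp6v1h (adjusted p 0.367) and Atp6v0e (0.546), a regulatory subunit of the pump head and a small subunit of its membrane sector. In HL the smallest adjusted p values were those of Ctsa (0.528), Tfeb (0.549) and Atg7 (0.596). Ctsa averaged 113.2 CPM at 4 h and 148.9 CPM at 20 h there.

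The test of whether the course over the day differed between treatments called 0 of the 37, beside 17 of all genes (0.128%), and 6 of the 37 had an unadjusted p under 0.05 in edgeR, beside 11.6% of all genes. After Atp6v0d1 the smallest values were those of Atp6v1b2 (unadjusted p 0.0140, adjusted p 0.311) and Ulk1 (unadjusted p 0.0196, adjusted p 0.337). Ulk1 encodes the kinase that starts autophagy. At 4 h in LH it held 60.93 CPM in a library that stood apart, 71.13 CPM in the remaining deeper one and 38.13 CPM, from 4 counts, in the shallow one, while the other LH libraries lay between 28.46 and 49.91 CPM. In HL the lowest collection mean was at 20 h (30.04 CPM), where 1 library held 14.74 CPM and the others 32.66 to 37.45 CPM. In HH the highest mean was also at 20 h (54.07 CPM), where 1 library held 87.8 CPM and the others 38.63 to 48.29 CPM.

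The other genes of these pathways, 103 past the filter from a list of 106, gave few calls as well. Between HH and HL their log2 differences had a median of -0.02, with 57 below 0 and 46 above, and none was called between LH and HL. Past both thresholds, 2 of the 103 were lower in HH than in HL, beside 1.2% of all genes called in either direction, and 2 were higher in LH than in HH, beside 0.91%. One of them in each case was Atp6v0b, a membrane subunit of the pump, at -0.26 in HH minus HL (SE 0.07, unadjusted p 0.000273, adjusted p 0.345) and 0.14 in LH minus HH. By library number Atp6v0b was at -0.12 in HH minus HL (unadjusted p 0.0671) and 0.22 in LH minus HH (unadjusted p 0.00129). Over collections 3 of the 103 were called in LH, beside 2.93% of all genes, and none in HL or HH. These were Pla2g15, a lysosomal phospholipase (adjusted p 0.0190), Atp6ap2, an accessory subunit of the pump (adjusted p 0.0101), and Ctss, a cysteine cathepsin (adjusted p 0.0345), and all 3 had an adjusted p of 1 without LH at 4 h. Ctss was low, at 0.390 to 4.21 CPM in the LH libraries of the other collections. At 4 h it held 2.08 CPM, 6.08 CPM and, from 6 counts in the shallow library, 57.2 CPM, and without that library its adjusted p was 0.285. For Pla2g15 and Atp6ap2 the adjusted p without it was 0.0303 and 0.00284, and without the 5 libraries that stood apart it was 0.271 and 0.809. By library number the adjusted p over collections in LH was 0.519 for Pla2g15, 0.278 for Atp6ap2 and 0.5715 for Ctss. JTK_CYCLE called 2 of the 103 in HH, beside 1.22% of all genes. These were Atg13, a partner of ULK1, and Atg4a, a protease of ATG8 proteins, each at p = 0.000615 with a peak at 0 h. With the first sequencing run only, their p values were 0.0663 and 0.269, and with the second only they were 0.000704 and 0.0111.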

How the data were processed

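The authors deposited raw counts of uniquely aligned reads per Ensembl gene, 1 file per sequencing run, made from 3′ mRNA libraries aligned to mm10 (STAR 2.6.0a and HTSeq 0.9.1 in the submitters' processing notes). No source used here states the annotation release or the strand setting. The 121 runs were summed to 62 libraries. Summary lines with no gene name stayed out of library sizes, and reads outside annotated features came to 18.4 to 29.1% per run. Depth is given in the report and sets the counting error only. Collections are timed from the first one in steps of 4 h, because the clock hours in the labels conflict. Positions came from GENCODE M21, which matched 31011 of 31053 genes.

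Counts of genes past the filter (1 CPM in 3 libraries) were fitted with edgeR 4.0.16 (quasi-likelihood, TMM, R 4.3.3), with treatment and collection as terms for levels and 1 mean per treatment and collection for courses over the day. SEs and intervals come from that fit. Rhythm was tested on CPM with JTK_CYCLE (period 24 h, phases every 2 h). The scripts were tested on simulated data. Alternatives were DESeq2 1.42.0, other scalings and filters, single runs, left-out replicates and libraries, library numbers in place of titles, a 24 h cosinor and a replicate block. Replicate numbers were not used as pairs, since libraries with the same number did not deviate together. No 2 of the 77 replicate pairs were identical. The members and lists were chosen with earlier results of these data known. Values in full were given for each member past a threshold. Otherwise the 3 with the smallest p in a comparison were named, some with values and some with the p alone. Tfe3, Gusb and the other members beyond these were named after their values were seen. One gene of the wider pathway list, among those called between treatments, is not reported here.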

Additional observations from a re-analysis of the deposited data

Results flagged for a closer look

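Among the named genes, 9 values, from fewer libraries, stood far from the other 3 of their group of 4, in 153 such groups tested by Dixon's ratio, and chance alone marks about 1 group in 20. The pump gene Atp6v0e held 134.3 CPM in HL at 4 h replicate 4, where the others held 270.9 to 296.3 CPM, and 171.3 CPM in LH at 8 h replicate 1, where the others held 205.2 to 211.5 CPM. Atp6v0d1 held 132.9 CPM in HL at 4 h replicate 4, above the 113.2 to 114.3 CPM of the others.

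In LH at 12 h replicate 2, Ctsd held 417.4 CPM against 532.6 to 550.3 CPM, and Wipi1 held 81.21 CPM against 116.1 to 122.4 CPM. Gabarap held 391.3 CPM in LH at 12 h replicate 3, below the 478.5 to 489.4 CPM of the other libraries at the peak of that gene. Atg5 held 70.39 CPM in LH at 8 h replicate 1, a small step below 74.14 to 74.52 CPM. Atg7 held 35.38 CPM in LH at 20 h replicate 3 against 24.83 to 25.66 CPM, and Tfeb held 27.19 CPM in LH at 16 h replicate 1 against 17.43 to 18.75 CPM. None of these libraries is among the 5 whose correlation with the median profile was under 0.9, and the cause was not tested.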

How the results depend on the processing

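Counts of the 37 genes past both level thresholds were 0 in each pair as reported. By library number they were 1 for LH against HL (Tfe3) and 2 for LH against HH. Alternatives chosen after seeing the data gave, without LH at 4 h, 1 for LH against HL (beside 1.32% of all genes) and 1 for HH against HL (beside 1.45%), Tfe3 in both, and, without the 5 libraries that stood apart, 2 for HH against HL. Leaving out 1 replicate number at a time gave 0 to 1 for LH against HL (1 without LH replicate 1, beside 1.64%), 0 to 4 for HH against HL (1 without LH replicate 1, beside 1.4%) and 0 to 4 for LH against HH (4 without HH replicate 4 in both).

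The count over collections in LH was 1 as reported, beside 2.93% of all genes. It was 2 without libraries under 1000000 counts (3.87%), 5 with no filter (6.05%; Tfe3, Psap, Atp6v1b2, Gabarapl2 and Ulk1), 3 with DESeq2 (5.8% of genes with an adjusted p) and 2 without the 5 libraries (2.72%). It was 0 by library number (1.05%), with the first run only (1.87%), with library totals (1.69%) and without LH at 4 h (0.0227%). The second run alone gave 1, a different gene (Gabarapl2), beside 7.11%. Leaving out 1 replicate number at a time gave 0 to 2. It was 0 without LH replicate 1 or 3, HL replicate 1, or HH replicate 1 or 4, and 2 without HL replicate 3 (4.75%), and without LH replicate 2 the 1 gene was Map1lc3b. The count over collections in HH became 2 with no filter (2.4%) and 1 with DESeq2 (Map1lc3a, beside 1.19%). The interaction count became 3 with no filter (5.19%) and 1 with DESeq2 (Atp6v0d1, beside 1.63%). The replicate block left every such count as it was, with an adjusted p of 0.0311 for Atp6v0d1 in LH.

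JTK_CYCLE counts moved from 0 to 1 in HL with the exact null of the tied reference curve (added later), beside 0.82% of all genes. In LH they moved to 1 with the first run only (Gabarap; 0.746%), and to 2 (Atp6v0d1 and Gabarap) without libraries under 1000000 counts (1.06%), with a cosinor (3.27%), with the tied null (1.51%), without the 5 libraries (1.35%) and without LH at 4 h (1.54%). By library number the direction turned, among the few genes followed through every alternative, for Tfe3 (LH minus HL 0.34, HH minus HL 0.024), Atp6v0d1 (LH minus HL 0.018) and Gusb (LH minus HL -0.12). The cause of these changes was not tested. Depth limits Galns, Gla and Tfeb most, at under 20 CPM.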
